A study of Saccharomyces cerevisiae with 28 samples.

Results

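The sam1 and shm2 deletion strains of Saccharomyces cerevisiae were compared directly with each other by RNA sequencing (RNA-seq). Both mutants were made in BY4741, a common laboratory strain, and each lacks 1 enzyme of one-carbon metabolism. All libraries labelled sam1 or shm2 were taken, which gave 8 of the 28 libraries of the series, from 4 cultures of 2 of its 8 strains. The sam1 cultures carry the replicate numbers 1 and 3 and the shm2 cultures the numbers 1 and 2. Every culture had 2 libraries, the second labelled as a technical replicate. BY4741 (cultures 2 and 3), with both genes intact, is given beside them as the background level, and also entered the estimate of the spread between cultures. Another BY4741 mutant, ser33 (cultures 2 and 3), entered only that estimate. All strains were grown in YPD, a rich medium with glucose, to an OD600 between 0.7 and 1.0, and no growth temperature is given. The deposited values are RPKM, that is, reads of a gene scaled to its length and to the reads of its library. The labels name the genotype only, and do not say how many clones of a mutant were grown. Replicate cultures are labelled as biological replicates, and nothing further is said of their origin. The p-values thus measure the spread between the cultures of these 4 strains, which the fit takes as equal in each strain.

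Sam1 and its close relative Sam2 are the S-adenosylmethionine (SAM) synthetases of yeast, which join methionine to ATP and so make the methyl donor of the cell. Shm2 is the cytosolic serine hydroxymethyltransferase, which moves a carbon unit from serine to tetrahydrofolate and leaves glycine. That carbon unit feeds purine synthesis, thymidylate synthesis and the methylation of homocysteine to methionine, so that the steps catalysed by Shm2 and Sam1 lie along 1 route. Yeast controls the genes of sulfate assimilation and methionine synthesis through the activator Met4, which is brought to promoters by Cbf1 and by Met31 and Met32, and which is held back when sulfur amino acids are plentiful.

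The depth of the libraries was worked out from the steps between low RPKM values. The implied totals were 9610000 to 17550000 reads in the sam1 libraries, 9910000 to 19110000 reads in the shm2 libraries and 13950000 to 36520000 reads in the BY4741 libraries. No library was a copy of another. MET17, LEU2 and URA3, which BY4741 lacks, had between 0 and 10 reads in every library of sam1, shm2 and BY4741. The markers of MATa cells, the mating type of BY4741, were abundant (MFA1, the a-factor gene, had 473 to 935 RPKM in the mutant cultures), and STE3, the receptor of MATalpha cells, stayed at or below 2.37 RPKM in them. The cultures of 1 strain did not lie close together. On the first principal component, which held 70.0% of the variance over the 8 cultures of the 4 strains, the sam1 cultures were at 32.8 and 51.4, the shm2 cultures at 16.3 and -15.1, and the BY4741 cultures at -28.6 and -6.6. The first shm2 culture thus lay nearer to sam1 than the second did. The differences within and between strains are given next, but they are unlike measures, because a mean of 2 cultures varies less than 1 culture. The median absolute log2 difference was 0.27 between the means of sam1 and shm2. Between single cultures of 1 strain it was 0.232 for sam1, 0.252 for shm2, 0.105 for ser33 and 0.214 for BY4741. The ser33 cultures thus lay closest together, although the fit takes the spread as equal in each strain. A strain with a smaller spread lowers the shared estimate on which the p-values rest.

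Levels were compared as log2(RPKM + 1) with limma and Benjamini-Hochberg adjustment over all 7125 genes, and a gene is said to have risen or fallen where its adjusted p was under 0.05. Each log2 value below is sam1 minus shm2. A total of 13 genes passed, which is 0.182% of those tested. Among them 6 genes were higher in sam1 (0.0842%) and 7 were lower (0.0982%). Without adjustment, 1562 genes (21.9%) had a p under 0.05, of which 793 were higher in sam1 and 769 lower. Besides SHM2, the genes that rose were 3 genes of sulfur metabolism (SUL2, MET2 and MET10) and 2 genes of cell wall mannoproteins (DAN1 and TIR1). Besides SAM1, the genes that fell were 3 genes of the mating response (FIG1, PRM6 and PRM2), BNA2, SPS19 and COS12. The number of calls rested on single cultures. Without sam1 culture 3 no gene passed with limma, although 752 had an unadjusted p under 0.05, and without sam1 culture 1 there were 240 calls, which held all 13 genes. It was 16 without shm2 culture 1, with 10 of the 13 genes among them, and 9 without shm2 culture 2, all 9 among the 13. With only the sam1 and shm2 cultures in the fit, no gene passed and 726 had an unadjusted p under 0.05. When every library was scaled to ACT1, the actin gene, 5 genes passed, 4 higher (SHM2, SUL2, DAN1 and TIR1) and 1 lower (SAM1), and the median of all genes was 0.183 in place of 0.00.

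**Figure D1:**
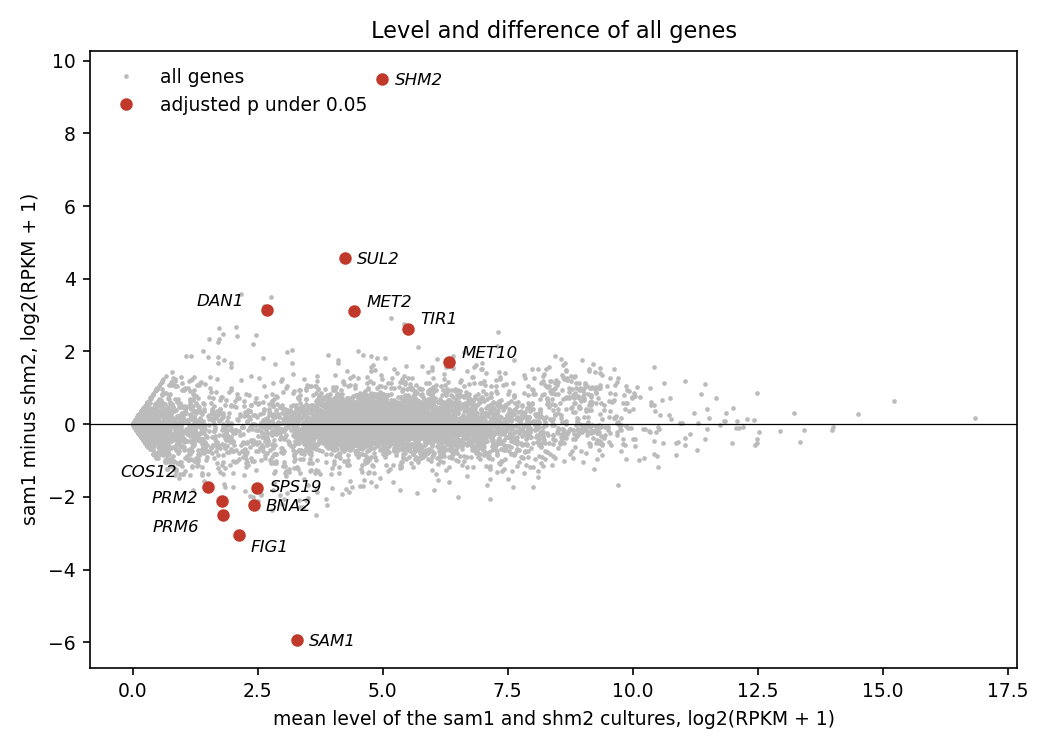
Each point is 1 of 7125 genes, with the mean level of the 4 sam1 and shm2 cultures on the x axis and the difference sam1 minus shm2 on the y axis, both on the log2(RPKM + 1) scale. Red points are the 13 genes with an adjusted p under 0.05 (limma, Benjamini-Hochberg), from SHM2 at 9.50 to SAM1 at -5.93.

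The deleted genes were examined first. SHM2 (YLR058C, chrXII:257992-259401, minus strand in R64) had 630 and 1159 RPKM in the sam1 cultures, 0.21 and 0.15 RPKM in the shm2 cultures, and 124 and 315 RPKM in the BY4741 cultures. In reads, this was 2 to 6 per shm2 library. SAM1 (YLR180W, chrXII:515262-516410, plus strand) had 0.202 and 0.297 RPKM in the sam1 cultures, or 1 to 6 reads per library, 101.4 and 55.7 RPKM in the shm2 cultures, and 33.8 and 87.5 RPKM in the BY4741 cultures. Every library thus lacked the gene named in its own label and held the other. The log2 difference was 9.50 (SE 0.478, adjusted p = 0.00409) for SHM2 and -5.93 (SE 0.476, adjusted p = 0.0156) for SAM1 with limma and Benjamini-Hochberg adjustment. The sizes of these differences depend on the pseudocount, because the deleted gene is near 0, and were 11.61 and -7.84 with a pseudocount of 0.1. The intact gene was not at the same level in each strain. SHM2 was above both BY4741 cultures in both sam1 cultures, whereas SAM1 in shm2 overlapped BY4741.

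**Figure D2:**
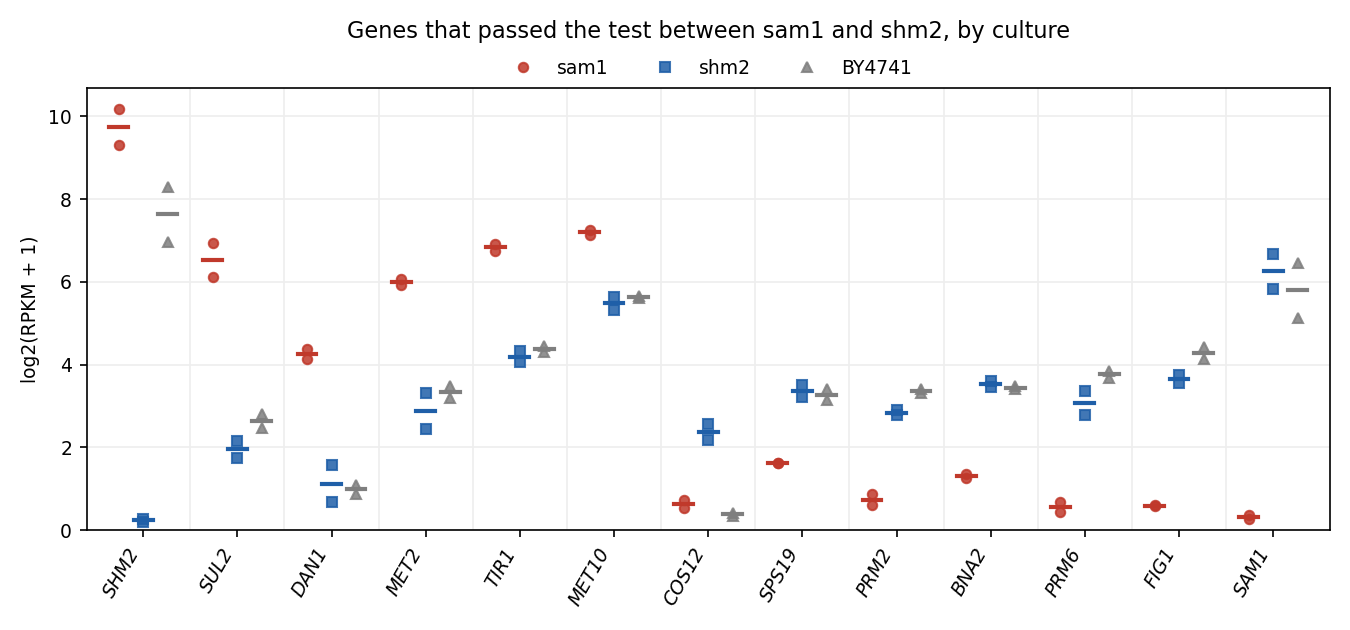
Level of the 13 genes with an adjusted p under 0.05, as log2(RPKM + 1), with 1 point for each culture and a bar at the mean of the 2 cultures of sam1 (red circles), shm2 (blue squares) and BY4741 (grey triangles). The sam1 and shm2 cultures do not overlap for any of these genes. For SUL2, DAN1, MET2, TIR1 and MET10 the BY4741 points lie beside those of shm2, and for COS12 they lie beside those of sam1.

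The promoters of the sulfur genes that rose carry the element of Cbf1, and stretches of them are shown here so that the elements can be compared. SAM2, which did not pass the test, is shown beside them as the intact SAM synthetase gene of sam1. The sequences are from the R64 assembly, and run 5′ to 3′ on the strand of the gene. Capitals mark CACGTG, the site that Cbf1 recognises, or AACTGTGG, the site of Met31 and Met32, read on either strand.

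SUL2: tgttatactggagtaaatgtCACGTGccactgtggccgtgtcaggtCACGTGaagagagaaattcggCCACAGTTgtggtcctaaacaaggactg
MET10: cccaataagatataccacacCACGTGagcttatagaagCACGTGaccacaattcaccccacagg
MET2: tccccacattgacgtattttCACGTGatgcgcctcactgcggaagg
SAM2: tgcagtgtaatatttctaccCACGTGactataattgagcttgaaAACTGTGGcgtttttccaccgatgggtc

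The SUL2 stretch is chrXII:323190-323284 (plus strand) and ends 260 bases before the start codon. The MET10 stretch is chrVI:213043-213106 (plus strand), the MET2 stretch chrXIV:116976-117021 (plus strand) and the SAM2 stretch chrIV:1454736-1454807 (minus strand). Within 500 bases before the start codon, CACGTG was found in 374 of 6019 promoters (6.21%) and AACTGTGG in 100 (1.66%). Of the 12 genes listed for sulfate assimilation and homocysteine synthesis, 11 held CACGTG, and the exception was SUL1. AACTGTGG was in 3 of these 12 promoters, in 4 of 7 of the methyl cycle list and in 3 of 4 of the transporter list. In the promoters of these lists no match of 1 element shared a base with a match of the other. A match describes the letters only, and binding was not measured.

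Transcripts for the uptake and reduction of sulfate were higher in sam1 than in shm2 along most of the pathway. SUL2 (YLR092W, chrXII:323544-326225, plus strand), a high-affinity sulfate permease, had 68.9 and 122 RPKM in sam1, 2.36 and 3.47 RPKM in shm2, and 5.98 and 4.58 RPKM in BY4741. The lower sam1 culture was thus far above the highest culture of the others, and shm2 lay just below BY4741. SUL2 rose by 4.58 on the log2 scale (SE 0.299, adjusted p = 0.00652, limma with Benjamini-Hochberg adjustment). MET2 (YNL277W, chrXIV:117349-118809, plus strand), the homoserine O-acetyltransferase that makes the carbon acceptor for sulfide, had 59.4 and 66.3 RPKM in sam1, 4.44 and 8.91 RPKM in shm2, and 10.2 and 8.23 RPKM in BY4741. Its log2 difference was 3.12 (SE 0.285, adjusted p = 0.0262, limma). MET10 (YFR030W, chrVI:213312-216419, plus strand), a subunit of sulfite reductase, had 152 and 139 RPKM in sam1, 39.3 and 48.6 RPKM in shm2, and 47.8 and 49.8 RPKM in BY4741. The sam1 cultures lay together and well clear of the other strains, with a log2 difference of 1.71 (SE 0.129, adjusted p = 0.0126, limma). Scaled to ACT1, MET2 (adjusted p = 0.136) and MET10 (0.189) did not pass with limma. Neither of these genes passed with BY4741 left out, whereas SUL2 passed in both settings.

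Of the 12 genes in the list, 3 rose, against 0.0842% of all genes, none fell and 9 did not pass. The median was 1.74, against 0.00 for all genes. Both sam1 cultures were above both shm2 cultures for 10 of the 12, and this held for 1870 of all 7125 genes (26.2%). The median was 1.42 and 2.17 for the sam1 cultures 1 and 3 over shm2 culture 1, and 1.27 and 1.84 over shm2 culture 2. The first shm2 culture, which leaned towards sam1 in other gene groups, did not do so here. The members that did not pass are given to complete the list. MET3, the ATP sulfurylase of the first step, had 75.2 and 162 RPKM in sam1, 13.8 and 17.5 RPKM in shm2, and 21.2 and 26.0 RPKM in BY4741, with a log2 difference of 2.75 (adjusted p = 0.0832, limma). MET14, the adenylylsulfate kinase, had 59.0 and 165 RPKM in sam1, 9.37 and 15.7 RPKM in shm2, and 16.0 and 16.4 RPKM in BY4741. Both genes were higher in sam1 culture 3 than in sam1 culture 1, which was itself above every shm2 and BY4741 culture. MET16, the next reductase, had 20.4 and 46.5 RPKM in sam1 and 7.19 and 9.81 RPKM in shm2. MET5, the partner of MET10 in sulfite reductase, had 142 and 147 RPKM in sam1 and 51.1 and 74.5 RPKM in shm2. The log2 difference was 2.92 for MET14, 1.76 for MET16, 1.21 for MET5, 1.05 for MET8, which acts in siroheme synthesis, and 1.01 for MET22, which removes a by-product of sulfate activation. SUL1, the second sulfate permease, was low throughout, with 1.79 and 9.19 RPKM in sam1 and 0.156 and 0.523 RPKM in shm2. MET1, also of siroheme synthesis, overlapped between the strains at 23.8 and 24.5 RPKM in sam1 and 16.1 and 26.5 RPKM in shm2.

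**Figure D3:**
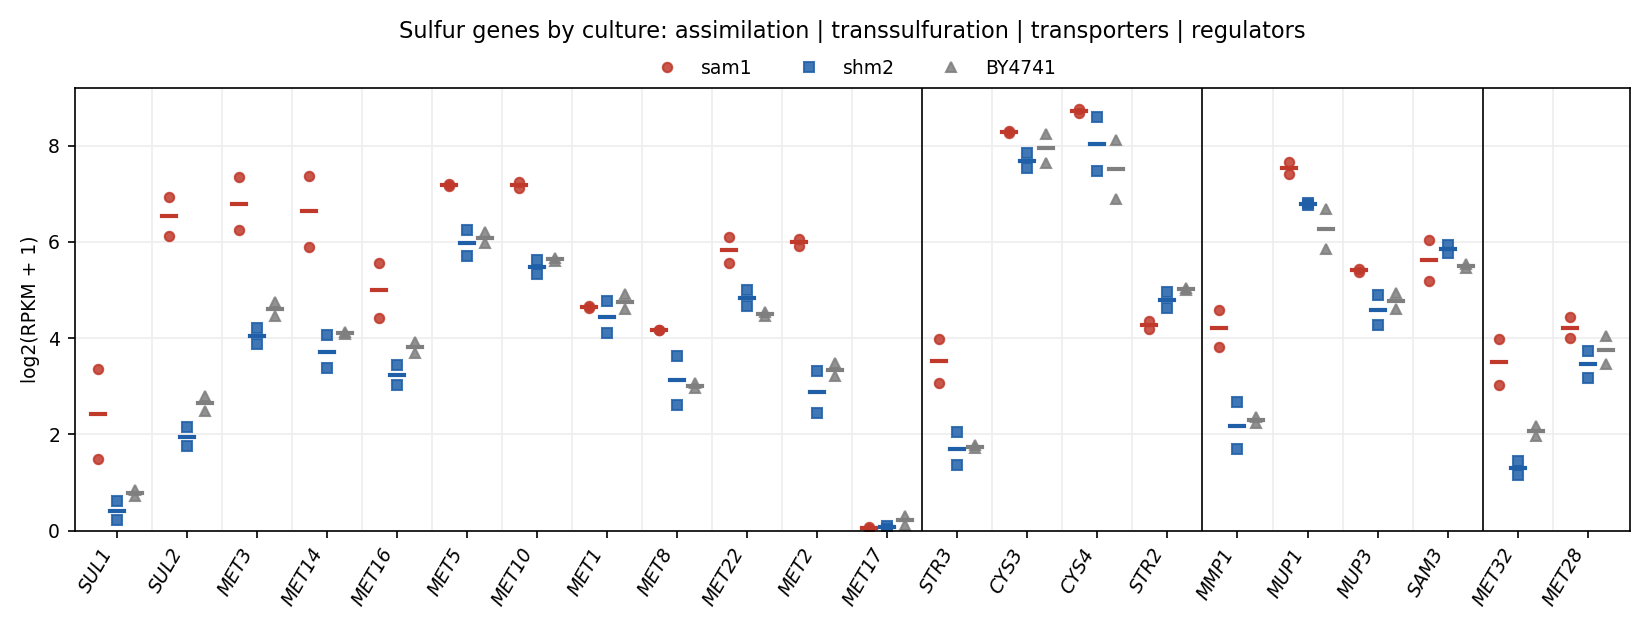
Level of the genes of sulfate assimilation and homocysteine synthesis, transsulfuration, methionine and SAM transport and of 2 sulfur regulators, as log2(RPKM + 1), with a point for each culture and a bar at the mean of sam1, shm2 and BY4741. In the first block the sam1 cultures are above both shm2 cultures except for MET1 and MET17, of which MET17 is deleted in BY4741.

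No gene of the neighbouring sulfur lists passed the test, and their values are given as they were measured. In transsulfuration, which links cysteine and homocysteine, STR3, the cystathionine beta-lyase gene, had 7.41 and 14.8 RPKM in sam1, 1.59 and 3.11 RPKM in shm2, and 2.43 and 2.27 RPKM in BY4741. CYS3 and CYS4 encode the enzymes from homocysteine to cysteine. CYS3 had 314 and 306 RPKM in sam1 and 230 and 184 RPKM in shm2, and CYS4 had 433 and 411 RPKM in sam1 and 385 and 178 RPKM in shm2. STR2, whose product joins cysteine to an activated homoserine, was lower in both sam1 cultures, at 19.6 and 17.3 RPKM against 23.6 and 30.1 RPKM in shm2. Of the transporters, MMP1, a high-affinity S-methylmethionine permease, had 13.2 and 23.2 RPKM in sam1, 2.25 and 5.35 RPKM in shm2, and 4.15 and 3.73 RPKM in BY4741. The methionine permease genes MUP1 and MUP3 were also above shm2 in both sam1 cultures, with log2 differences of 0.75 and 0.83, and SAM3, the SAM permease gene, overlapped. Among 6 regulators, MET32 had the largest difference, with 7.15 and 14.9 RPKM in sam1, 1.22 and 1.72 RPKM in shm2, and 3.53 and 2.89 RPKM in BY4741. Its log2 difference was 2.21 (SE 0.318, adjusted p = 0.101, limma). MET28, a cofactor of Met4, had 15.03 and 20.6 RPKM in sam1 and 8.08 and 12.2 RPKM in shm2, and the median of the 6 regulators was -0.10, or 0.11 when scaled to ACT1. GSH1, the first enzyme of glutathione synthesis, had 83.3 and 113 RPKM in sam1, 36.4 and 56.5 RPKM in shm2, and 47.9 and 44.6 RPKM in BY4741, with a log2 difference of 1.08 (adjusted p = 0.165, limma).

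The genes of the methyl cycle were then described one by one, since the deleted SAM1 belongs to it. SAM2 (YDR502C, chrIV:1453310-1454464, minus strand), the remaining SAM synthetase gene of the sam1 strain, had 84.4 and 107 RPKM in sam1, 25.8 and 36.4 RPKM in shm2, and 43.7 and 40.2 RPKM in BY4741. Both sam1 cultures were above, and both shm2 cultures below, the BY4741 cultures. The log2 difference was 1.60 (SE 0.200, adjusted p = 0.078, limma) and did not pass. It passed on a minimum mean of 1 RPKM (adjusted p = 0.027, limma) and with the second library of each culture only (0.0351). It did not pass with the first libraries only (0.107), scaled to ACT1 (0.247), with BY4741 left out (0.217) or with only sam1 and shm2 fitted (0.434). With 1 culture left out, the log2 difference of SAM2 was between 1.36 and 1.85. SAM1 and SAM2 share 83.2% of their bases over 1149 positions, which is below the limit of 95% set for near-identical genes. MET6, the methionine synthase that uses a folate-borne methyl group, had 703 and 680 RPKM in sam1, 304 and 330 RPKM in shm2, and 206 and 306 RPKM in BY4741, with a log2 difference of 1.12 (adjusted p = 0.158, limma). SAH1, the S-adenosylhomocysteine hydrolase gene, and ADO1, the adenosine kinase gene, differed by -0.10 and -0.04, and their cultures overlapped. MHT1 and SAM4, whose products use S-methylmethionine or SAM to methylate homocysteine, differed by 1.05 and -0.20. The MHT1 difference was 0.41 without shm2 culture 1 and 1.68 without shm2 culture 2. Over the 7 genes of the list, 1 fell (SAM1) and none rose, and the median was -0.04, or 0.17 when scaled to ACT1.

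Of 14 folate enzymes, 1 rose (SHM2, deleted in shm2), none fell and 13 did not pass, and the median was 0.08. SHM1, the mitochondrial serine hydroxymethyltransferase gene, had 212 and 133 RPKM in sam1, 245 and 227 RPKM in shm2, and 200 and 334 RPKM in BY4741, with a log2 difference of -0.48 (SE 0.311, adjusted p = 0.372, limma). The coding sequences of SHM1 and SHM2 share 67.1% of their bases. MTD1, a cytosolic methylenetetrahydrofolate dehydrogenase gene, had 40.2 and 174 RPKM in sam1, 50.3 and 44.0 RPKM in shm2, and 13.4 and 16.7 RPKM in BY4741. All 4 mutant cultures were above BY4741, and the sam1 cultures lay on either side of shm2. Its difference of 0.82 was -0.22 without sam1 culture 3. FOL1, of folate synthesis, had 20.9 and 25.7 RPKM in sam1 and 15.2 and 10.5 RPKM in shm2, a difference of 0.83. The others differed by less. The log2 difference was 0.43 for MIS1 and 0.05 for ADE3, the mitochondrial and cytosolic C1-tetrahydrofolate synthase genes. It was 0.13 for MET12 and 0.11 for MET13, the methylenetetrahydrofolate reductase genes. It was 0.35 for DFR1 (dihydrofolate reductase), 0.05 for MET7 (folylpolyglutamate synthetase), -0.02 for FOL2 and -0.12 for FOL3, both of folate synthesis, 0.03 for CDC21 (thymidylate synthase) and -0.01 for FAU1.

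The glycine cleavage system, which breaks glycine down in mitochondria and passes a carbon unit to folate, was high in both mutants. GCV1 had 241 and 386 RPKM in sam1, 362 and 387 RPKM in shm2, and 25.7 and 76.2 RPKM in BY4741. GCV2 had 165 and 267 RPKM in sam1, 250 and 228 RPKM in shm2, and 20.9 and 44.2 RPKM in BY4741. GCV3 had 482 and 581 RPKM in sam1, 713 and 541 RPKM in shm2, and 91.0 and 228 RPKM in BY4741. The cultures of the mutants overlapped for these 3 genes, and none of them overlapped BY4741. Between the mutants the log2 differences were -0.29 (SE 0.496), -0.19 (SE 0.378) and -0.23 (SE 0.420), with adjusted p-values of 0.739, 0.783 and 0.76 (limma), and each SE was larger than its difference. LPD1, whose product also serves other dehydrogenases, had 208 and 172 RPKM in sam1, 277 and 274 RPKM in shm2, and 225 and 270 RPKM in BY4741.

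Of the 7 genes of serine and glycine synthesis none passed, and the median was 0.49. SER33 and SER3 encode the isozymes of the first step, 3-phosphoglycerate dehydrogenase. SER33 had 74.8 and 151 RPKM in sam1, 37.2 and 36.6 RPKM in shm2, and 28.9 and 35.0 RPKM in BY4741. SER3, which overlaps another annotated gene, had 30.7 and 51.5 RPKM in sam1, 53.5 and 175 RPKM in shm2, and 392.3 and 199 RPKM in BY4741. The isozymes thus differed in opposite directions, by 1.50 for SER33 (SE 0.315, adjusted p = 0.164) and -1.26 for SER3 (SE 0.612, adjusted p = 0.266, limma), and all mutant cultures had less SER3 transcript than the BY4741 cultures. The SER3 difference was -0.42 without shm2 culture 2 and -2.11 without shm2 culture 1. GLY1, the threonine aldolase gene, another source of glycine, had 157 and 247 RPKM in sam1, 162 and 104 RPKM in shm2, and 64.5 and 81.3 RPKM in BY4741. The log2 difference was 0.49 for SER1 and 0.67 for SER2, which encode the later steps of serine synthesis, 0.59 for GLY1, 0.26 for AGX1, which makes glycine from glyoxylate, and 0.09 for CHA1, the serine deaminase gene.

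**Figure D4:**
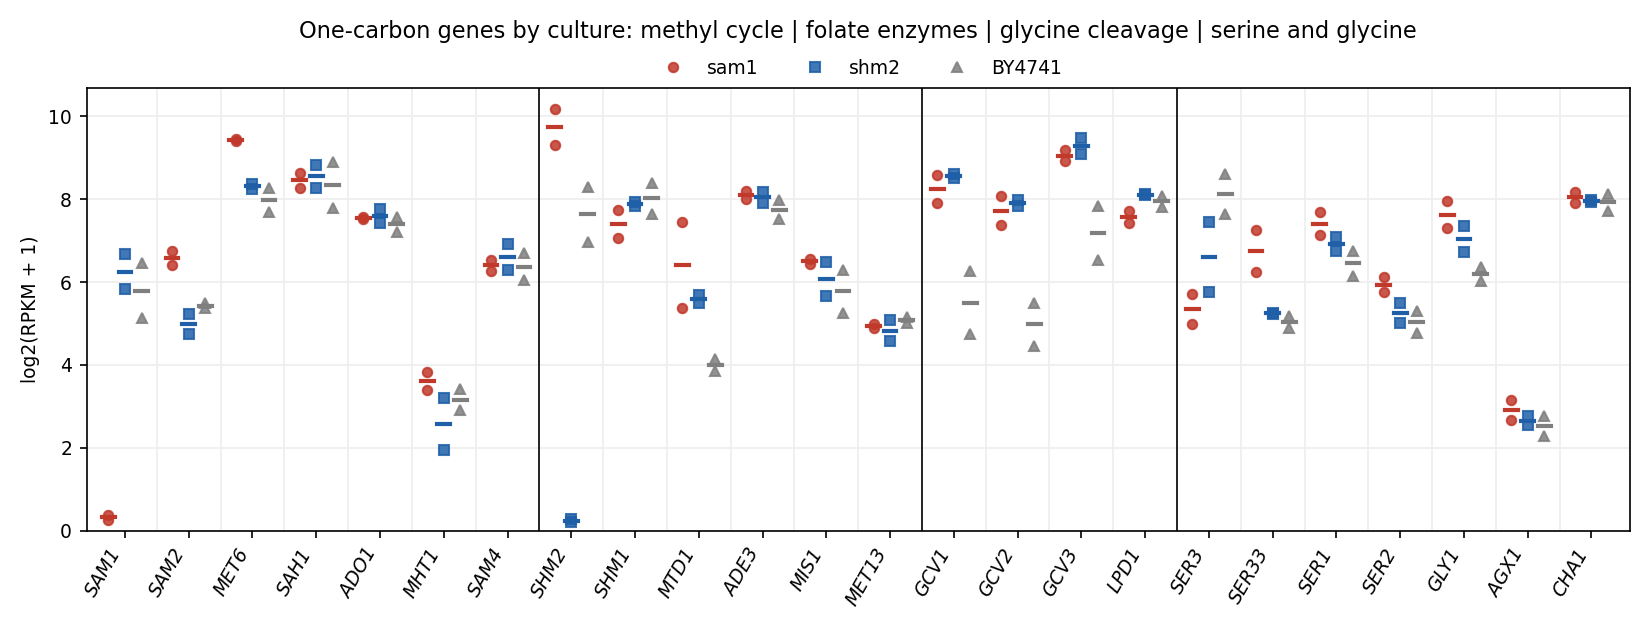
Level of the genes of the methyl cycle, of 6 folate enzymes, of the glycine cleavage system and of serine and glycine synthesis, as log2(RPKM + 1), with a point for each culture and a bar at the mean of sam1, shm2 and BY4741. GCV1, GCV2 and GCV3 are above BY4741 in all 4 mutant cultures, and SAM2, MET6 and SER33 are higher in both sam1 cultures than in both shm2 cultures.

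De novo purine synthesis takes up carbon units from folate. None of its 10 genes passed, the median was 0.72, and both sam1 cultures were above both shm2 cultures for 6, against 26.2% of all genes. ADE12, of the branch to AMP, had 152 and 212 RPKM in sam1, 124 and 80.8 RPKM in shm2, and 55.5 and 79.5 RPKM in BY4741. ADE1 had 183 and 367 RPKM in sam1, 157 and 92.3 RPKM in shm2, and 44.2 and 56.2 RPKM in BY4741. Both mutants were thus above BY4741 for ADE1, whereas for ADE12 shm2 culture 2 was about level with BY4741 culture 3 (80.8 and 79.5 RPKM). For both genes sam1 culture 3 was the highest. The nearest cultures of the mutants, sam1 culture 1 and shm2 culture 1, were close together. ADE13 and ADE4 differed by 0.84 and 0.95. The median of the list was 0.11 between sam1 culture 1 and shm2 culture 1, and 1.20 between sam1 culture 3 and shm2 culture 2.

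Genes of the mating response, by which MATa cells answer the pheromone of MATalpha cells, were lower in sam1. FIG1 (YBR040W, chrII:316968-317864, plus strand), a membrane protein of mating cells, had 0.4996 and 0.514 RPKM in sam1, 10.7 and 12.4 RPKM in shm2, and 20.6 and 16.6 RPKM in BY4741. PRM6 (YML047C, chrXIII:180017-181075, minus strand), a pheromone-regulated membrane protein, had 0.598 and 0.363 RPKM in sam1, 5.88 and 9.24 RPKM in shm2, and 13.4 and 11.9 RPKM in BY4741. PRM2 (YIL037C, chrIX:283029-284999, minus strand), another pheromone-regulated membrane protein, had 0.837 and 0.513 RPKM in sam1, 5.84 and 6.46 RPKM in shm2, and 8.95 and 9.68 RPKM in BY4741. In all of these the order was sam1, shm2, BY4741 with no overlap. FIG1 fell by 3.06 on the log2 scale (SE 0.159, adjusted p = 0.00409), PRM6 fell by 2.51 (SE 0.212, adjusted p = 0.0188) and PRM2 fell by 2.10 (SE 0.138, adjusted p = 0.00652), all with limma. The pseudocount compresses such low values, and with 1 RPKM added a fall below about 1 RPKM adds little to the log2 value. Scaled to ACT1, FIG1 (adjusted p = 0.0962), PRM6 (0.189) and PRM2 (0.136) did not pass with limma. PRM6 also did not pass with the first libraries only (adjusted p = 0.0992, limma) or with BY4741 left out (0.118), whereas FIG1 and PRM2 passed in both settings.

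Of the 20 genes of the pheromone response list, 3 fell, against 0.0982% of all genes, none rose and 17 did not pass, with a median of -0.84. Both sam1 cultures were below both shm2 cultures for 15, against 1812 of all 7125 genes (25.4%). FUS2, which acts in cell fusion, had 2.19 and 3.41 RPKM in sam1, 9.15 and 15.9 RPKM in shm2, and 25.1 and 21.7 RPKM in BY4741, with a log2 difference of -1.81 (adjusted p = 0.136, limma). PRM1, FUS1 and AGA1 were chosen after their values were seen. PRM1, also of cell fusion, had 9.26 and 3.96 RPKM in sam1, 24.7 and 33.7 RPKM in shm2, and 60.4 and 51.1 RPKM in BY4741. FUS1 had 35.6 and 16.3 RPKM in sam1 and 50.3 and 57.5 RPKM in shm2, and AGA1, the anchor of the a-agglutinin, had 33.6 and 23.3 RPKM in sam1 and 56.3 and 46.1 RPKM in shm2. Each of these had both BY4741 cultures highest, in the same order of strains as FIG1. Of the 7 markers of MATa cells none passed the test. Both sam1 cultures were below both shm2 cultures for 3 and above them for 2, the median was -0.49, and it was 0.09 between sam1 culture 1 and shm2 culture 2. MFA1 had 535 and 473 RPKM in sam1 and 871 and 935 RPKM in shm2, and AGA2 had 246 and 183 RPKM in sam1 and 395 and 399 RPKM in shm2. MFA2, the other a-factor gene, was higher in sam1, with 1091 and 1118 RPKM against 934 and 785 RPKM in shm2. The 5 markers of MATalpha cells were also all lower in both sam1 cultures, against 25.4% of all genes, and none of them passed the test. STE3 was low throughout, at 0.347 and 0.239 RPKM in sam1, 1.29 and 2.37 RPKM in shm2, and 2.74 and 2.51 RPKM in BY4741. The part of other cells in these differences was not tested.

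Ste12, the activator of mating genes, recognises TGAAACA, and promoter stretches of 4 of these genes are shown to let the elements be compared. They are from R64, 5′ to 3′ on the strand of the gene, with the element in capitals on either strand.

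PRM2: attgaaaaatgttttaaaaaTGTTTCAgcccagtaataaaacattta
PRM6: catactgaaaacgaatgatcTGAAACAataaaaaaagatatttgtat
FUS2: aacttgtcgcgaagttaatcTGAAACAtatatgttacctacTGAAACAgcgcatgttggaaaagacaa
PRM1: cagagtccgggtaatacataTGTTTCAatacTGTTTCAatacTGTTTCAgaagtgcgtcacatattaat

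These are chrIX:285115-285161 (minus strand) for PRM2, chrXIII:181205-181251 (minus strand) for PRM6, chrXIII:736685-736752 (plus strand) for FUS2 and chrXIV:110716-110784 (plus strand) for PRM1. PRM1 holds 3 copies within 69 bases and FUS2 holds 2 within 68 bases. TGAAACA was present in 14 of the 20 promoters of the list and in 722 of 6019 promoters (12%). It was not found in the 500 bases before FIG1, the gene of the list with the largest difference.

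Cell wall mannoprotein genes that are known to be induced by cold or by lack of oxygen made up the other rises. TIR1 (YER011W, chrV:175248-176012, plus strand) had 106 and 120 RPKM in sam1, 19.0 and 15.8 RPKM in shm2, and 18.8 and 20.7 RPKM in BY4741. DAN1 (YJR150C, chrX:708811-709707, minus strand) had 16.6 and 19.7 RPKM in sam1, 1.98 and 0.595 RPKM in shm2, and 0.847 and 1.14 RPKM in BY4741. For both genes the shm2 and BY4741 cultures overlapped and sam1 stood apart. The log2 difference was 2.63 for TIR1 (SE 0.149, adjusted p = 0.00409) and 3.13 for DAN1 (SE 0.302, adjusted p = 0.0292, limma). TIR1 differed between libraries of the same culture, with 72.1 and 156 RPKM in the first and second library of sam1 culture 1. In those of shm2 culture 1 it had 15.2 and 23.9 RPKM, and it passed with either set of libraries. DAN1 did not pass with the first libraries only (adjusted p = 0.0636, limma) or with a pseudocount of 0.1 (adjusted p = 0.112). TIR4 had 11.97 and 21.2 RPKM in sam1 and 3.24 and 3.31 RPKM in shm2, with a log2 difference of 1.99 (adjusted p = 0.078, limma). Of the 30 measured seripauperin, DAN and TIR genes, 2 rose, against 0.0842% of all genes, none fell and 28 did not pass. Both sam1 cultures were above both shm2 cultures for 11 and below them for 3, against 26.2% and 25.4% of all genes. The median was 0.17, or -0.01 without shm2 culture 1. Of the 30 genes 21 have a near-identical copy, so their reads may be split between copies.

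The other genes that fell do not belong to 1 pathway. BNA2 (YJR078W, chrX:578860-580221, plus strand), the tryptophan dioxygenase of NAD synthesis, had 1.39 and 1.58 RPKM in sam1, 11.1 and 9.99 RPKM in shm2, and 10.2 and 9.62 RPKM in BY4741. BNA2 overlaps another annotated gene, and how the reads of such genes were counted is not given. SPS19 (YNL202W, chrXIV:259578-260456, plus strand), a peroxisomal dienoyl-CoA reductase, had 2.06 and 2.06 RPKM in sam1, 8.37 and 10.3 RPKM in shm2, and 9.68 and 7.82 RPKM in BY4741. In both, sam1 stood apart and shm2 overlapped BY4741. BNA2 fell by 2.22 on the log2 scale (SE 0.122, adjusted p = 0.00409) and SPS19 fell by 1.75 (SE 0.171, adjusted p = 0.0292, limma). SPS19 did not pass with the second libraries only (adjusted p = 0.103, limma), scaled to ACT1 (0.247) or with BY4741 left out (0.118). Of these settings, BNA2 failed only when scaled to ACT1. The log2 difference of SPS19 was -1.89 without shm2 culture 1 and -1.61 without shm2 culture 2.

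COS12 (YGL263W, chrVII:2790-3932, plus strand), a membrane protein gene near the left end of its chromosome, was under 5 RPKM in every culture and is named as the COS gene with the smallest p. It had 0.451 and 0.669 RPKM in sam1, 4.97 and 3.55 RPKM in shm2, and 0.275 and 0.345 RPKM in BY4741. In reads, this was 6 to 17 per sam1 library, 44 to 98 per shm2 library and 5 to 10 per BY4741 library. Here shm2 was further from BY4741 than sam1 was, which among the other called genes was so for SHM2 only. COS12 fell by 1.74 on the log2 scale (SE 0.170, adjusted p = 0.0292, limma). It did not pass with a pseudocount of 0.1 (adjusted p = 0.075), a minimum mean of 1 RPKM (0.113), the first libraries only (0.106) or scaling to ACT1 (0.0571), nor without either shm2 culture (0.059 without culture 1, 0.0537 without culture 2). Of the 11 measured COS genes, 1 fell, against 0.0982% of all genes, and none rose. The median was -0.52, or -0.13 when the 6 with a near-identical copy were left out. COS8 had 26.6 and 47.5 RPKM in sam1, 74.0 and 73.1 RPKM in shm2, and 51.1 and 35.7 RPKM in BY4741.

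Several large gene groups differed in their median without a single gene past the test. Of 56 genes of the small ribosomal subunit, 52 were higher in both sam1 cultures than in both shm2 cultures, and of 82 genes of the large subunit 75 were, with medians of 0.95 and 0.98, against 26.2% of all genes. RPS31 had 1708 and 3279 RPKM in sam1, 1112 and 563 RPKM in shm2, and 486 and 795 RPKM in BY4741. RPL15A had 694 and 1436 RPKM in sam1, 493 and 275 RPKM in shm2, and 231 and 324 RPKM in BY4741. RPL9B had 444 and 490 RPKM in sam1 and 312 and 216 RPKM in shm2. RPS22B, which overlaps another annotated gene, had the largest difference of the list, 2.53 (adjusted p = 0.165, limma). For the small subunit the median was 0.30 between sam1 culture 1 and shm2 culture 1, and 1.66 between sam1 culture 3 and shm2 culture 2. The shm2 cultures differed from each other by a median of 0.78 and the sam1 cultures by -0.61 (culture 1 minus culture 3). The strain means differed by 0.95. Ribosome biogenesis factors followed at a median of 0.49, with 41 of 75 higher in both sam1 cultures.

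Genes of the stress response ran the other way. The median was -1.16 over 30 genes of the general stress response, -0.97 over 24 heat shock chaperones and -1.03 over 17 genes of trehalose and glycogen metabolism, and 23, 21 and 16 of them were lower in both sam1 cultures, as were 25.4% of all genes. SSA4, a heat-induced Hsp70 gene, had 92.1 and 51.0 RPKM in sam1, 191 and 436 RPKM in shm2, and 648 and 309 RPKM in BY4741. HSP82, an Hsp90 gene, had 742 and 302 RPKM in sam1, 1212 and 1841 RPKM in shm2, and 1976 and 1531 RPKM in BY4741. SOL4, of the pentose phosphate pathway, had 60.1 and 32.7 RPKM in sam1, 109 and 298 RPKM in shm2, and 369 and 168 RPKM in BY4741. The cultures of sam1 and shm2 did not overlap for these genes, but the first shm2 culture was the lower of its strain each time. For the general stress list the median was -0.21 and -0.44 for the sam1 cultures 1 and 3 against shm2 culture 1, and -1.87 and -2.01 against shm2 culture 2. Between the shm2 cultures (culture 1 minus culture 2) it was -1.48. GAD1, the glutamate decarboxylase gene, and NTH1, a trehalase gene, differed by -1.30 and -0.81.

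Respiratory genes of the nucleus were lower in sam1, and those of the mitochondrial genome were higher. Of 16 genes of the tricarboxylic acid cycle 15, and of 35 nuclear genes of oxidative phosphorylation 33, were lower in both sam1 cultures, with medians of -0.74 and -0.61 and no gene past the test, against 25.4% of all genes. ACO1, the aconitase gene, had 414 and 312 RPKM in sam1, 736 and 730 RPKM in shm2, and 611 and 573 RPKM in BY4741, a log2 difference of -1.03 (adjusted p = 0.153, limma). QCR2, of complex III, had 168 and 112 RPKM in sam1, 289 and 325 RPKM in shm2, and 321 and 262 RPKM in BY4741. The shm2 cultures lay close together for ACO1 and QCR2, and the medians of the cycle were between -0.54 and -0.93 for the pairs of cultures. FUM1, ATP1 and ATP16 differed by -0.78, -0.81 and -0.84. In the mitochondrial genome, 7 of 8 genes were higher in both sam1 cultures, against 26.2% of all genes, and the median was 0.63. COX2, which overlaps another annotated gene, had 1949 and 1917 RPKM in sam1, 1341 and 1104 RPKM in shm2, and 1107 and 1182 RPKM in BY4741. ATP6 had 1249 and 1068 RPKM in sam1, 804 and 735 RPKM in shm2, and 882 and 911 RPKM in BY4741. The median of these 8 genes was 0.39 with the first libraries and 0.94 with the second, so it differed between libraries of the same cultures.

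**Figure D5:**
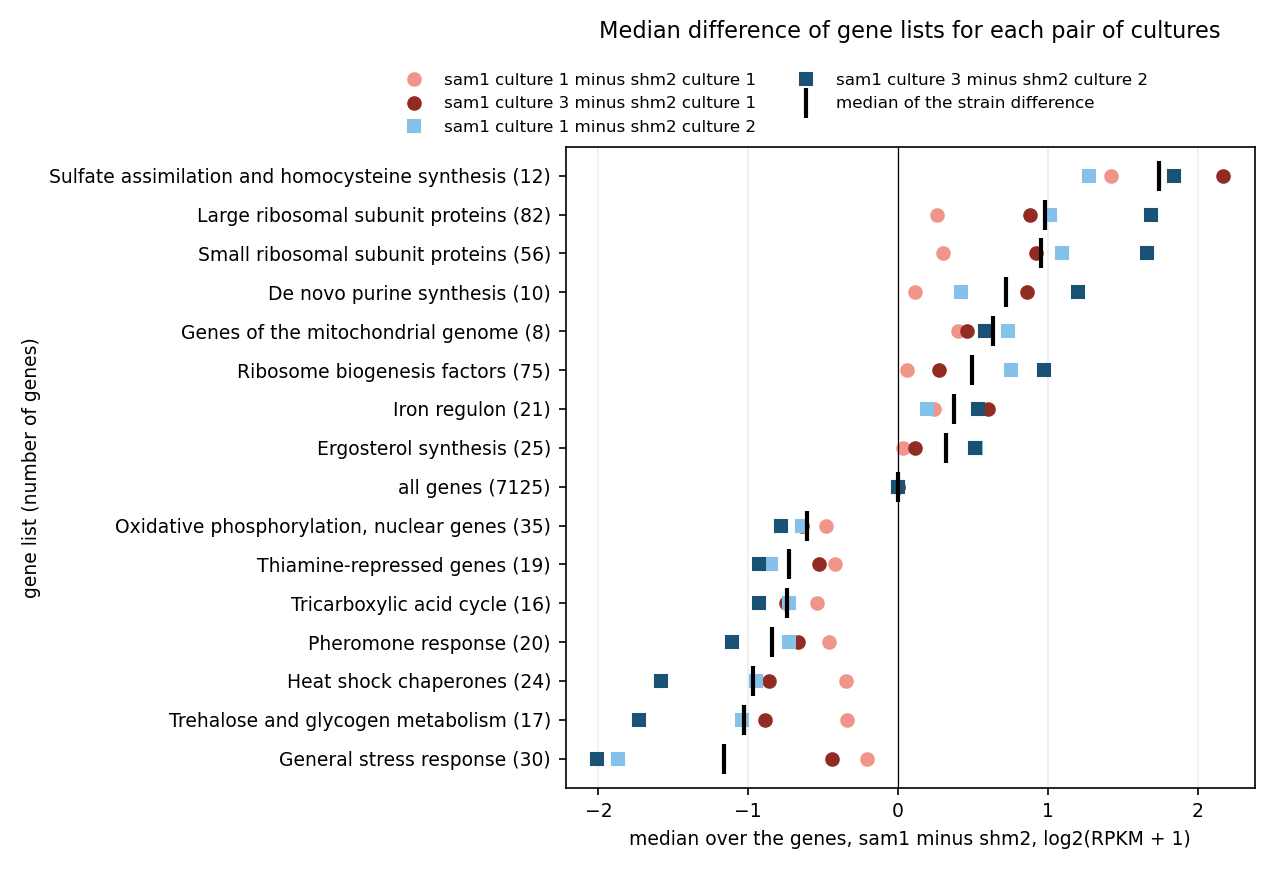
Median of the log2(RPKM + 1) difference over the genes of each list (number of genes in brackets) for each of the 4 pairs of a sam1 culture and an shm2 culture, with a black tick at the median of the difference between strain means. Sulfate assimilation is above 1 for every pair, whereas the general stress list runs from -0.21 and -0.44 against shm2 culture 1 to -1.87 and -2.01 against shm2 culture 2.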

How the data were processed

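RNA-seq was measured in 8 libraries of sam1 and shm2 and compared with 8 of BY4741 and ser33. The authors deposited 1 table of RPKM values with a column for each library (28 in use, and 32 more that hold no value and were not used). Libraries were stranded and depleted of ribosomal RNA. The submitters' processing notes name CASAVA 1.8.2, TopHat2 2.0.13, edgeR and sacCer3 without a role. The counting, annotation and read totals are not given in the sources used here. Because RPKM is relative to the reads of a library, other values drop where abundant transcripts rise. The experiment is not described in the text of the paper.

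Genes were matched to RefSeq R64 by systematic name or symbol (6162 of 7125), and near-identical genes (at least 95% identity over at least 80% of the length, 313 genes) were found with BLAST+ 2.17.0. For 5879 genes with 1 exon, RPKM times length gave whole reads within 0.15 for 100% of low values in these libraries, which gave their depth. This covers counting error only. The libraries of a culture were averaged as log2(RPKM + 1), with no filter, so n = 2 cultures a strain. The model was fitted by limma 3.58.1 under R 4.3.3 (lmFit, then eBayes with a trend), with sam1, shm2, BY4741 and ser33 in 1 model and Benjamini-Hochberg adjustment. An exact permutation test of 2 against 2 cultures cannot go below p = 0.333 and was not used. Fold values on this scale understate the change of low genes. The fitting step was tested on simulated data.

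The members and gene lists were chosen with earlier results of these data known. Named genes were all members of the 4 one-carbon lists, the called genes with the largest difference in each direction, with no overlap and at least 5 RPKM in the higher strain, up to 4 genes of smallest p in other lists, and the 5 genes that differed most within each mutant. Other names complete a list or are marked. Promoters were the 500 bases before the start codon in R64. Alternatives were another pseudocount, a minimum of 1 RPKM, either library alone, other fits and scalings, removal of near-identical genes, a fold limit, a replicate block and each culture left out. Leaving BY4741 out was added after the data were seen. Python 3.11.15, pandas 2.3.3 and matplotlib 3.10.9 were used.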

Additional observations from a re-analysis of the deposited data

How the results depend on the processing

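The 13 calls (6 higher in sam1, 7 lower) became 22 (12 higher) with a minimum mean of 1 RPKM. They became 5 (1 lower) when scaled to ACT1. They became 7 (3 higher, 4 lower) with BY4741 left out, an alternative chosen after seeing the data. MET2, MET10, DAN1, PRM6, SPS19 and COS12 were lost without BY4741. There were 0 calls with only sam1 and shm2 fitted. In that fit SAM1 was -5.93 and SHM2 9.50, with adjusted p-values of 0.302 and 0.212 (limma). Leaving out a culture gave 0 to 240 calls, 0 to 193 higher and 0 to 47 lower, SAM1 between -6.36 and -5.50 and SHM2 between 9.06 and 9.94. A culture left alone in its strain was assumed to vary like the other strains. Pseudocount, single libraries, median-of-ratios scaling, near-identical genes, eBayes without trend and a log2 fold of at least 1 kept the count within 1.5 times, but not always the genes: 11 of the 13 were called with a pseudocount of 0.1 (DAN1 and COS12 lost), 10 with the first libraries (DAN1, COS12 and PRM6 lost) and 12 with the second (SPS19 lost). With the replicate number as a block there were 0 calls (678 genes at an unadjusted p under 0.05), with SAM1 at -6.27 and SHM2 at 9.19. sam1 and shm2 share only number 1, and the deviations of these cultures had r = -0.20 across genes. Over the same-numbered cultures of the 4 strains r ran from -0.20 to 0.68, the highest for BY4741 and shm2 number 2, and not every pair was over 0.1, so the numbers were not taken to pair the samples. For genes that did not pass, the sign turned when scaled to ACT1 for SAH1 (0.12), ADO1 (0.17), SAM4 (0.01), FOL2 (0.20), FOL3 (0.09), FAU1 (0.19) and GCV2 (0.03), with the second libraries for SAH1 (0.16), ADO1 (0.27), FOL2 (0.01), CDC21 (-0.03) and FAU1 (0.03), with the first for MET13 (-0.01) and MET7 (-0.05), and with the block for ADE3 (-0.03) and CDC21 (-0.28). Over the cultures left out, the difference crossed 0 for CDC21 (-0.50 to 0.57), GCV1 (-0.63 to 0.04), GCV2 (-0.53 to 0.16), SAM3 (-0.66 to 0.19), MET13 (-0.14 to 0.36), SAM4 (-0.53 to 0.12), MET7 (-0.01 to 0.11), ADO1 (-0.21 to 0.12), CHA1 (-0.05 to 0.23), MTD1 (-0.22 to 1.86), FOL2 (-0.09 to 0.06), SAH1 (-0.37 to 0.18), FAU1 (-0.15 to 0.13), ADE3 (-0.08 to 0.18) and MET1 (-0.13 to 0.55). The cause of these changes was not tested, except that fewer samples entered the smaller fits. With 2 cultures a strain, a difference that did not pass is not shown to be absent, and levels under about 1 RPKM rest on few reads.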

Other observations

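Several other gene groups were set side by side between sam1 and shm2, and no gene of them passed the test (limma, adjusted p). Iron uptake genes were higher in sam1 at a median of 0.37 over 21 genes. FRE1, a cell-surface metal reductase gene, had 100.3 and 154 RPKM in sam1, 44.9 and 28.3 RPKM in shm2, and 21.6 and 43.1 RPKM in BY4741. FIT3, a cell wall mannoprotein that retains iron carriers, had 688 and 875 RPKM in sam1, 411 and 311 RPKM in shm2, and 185 and 306 RPKM in BY4741. FRE5 and ARN1 differed by 1.67 and 0.95, and 11 of the 21 genes were higher in both sam1 cultures, against 26.2% of all genes. Ergosterol genes had a median of 0.32 over 25 genes, with ERG3 at 228 and 355 RPKM in sam1, 125 and 91.0 RPKM in shm2, and 78.3 and 93.9 RPKM in BY4741. UPC2, an activator of sterol genes, had 31.1 and 27.0 RPKM in sam1 and 20.9 and 14.7 RPKM in shm2, and ERG2 differed by 1.29.

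Thiamine-repressed genes had a median of -0.73 over 19 genes, 8 of them with a near-identical copy. THI20 had 9.19 and 9.13 RPKM in sam1, 18.1 and 21.9 RPKM in shm2, and 22.4 and 20.3 RPKM in BY4741, with a log2 difference of -1.04 (adjusted p = 0.0832, limma). SNZ3, which has a near-identical copy, differed by -0.75. Of the arginine genes, ARG7 had 25.3 and 23.4 RPKM in sam1, 41.7 and 40.0 RPKM in shm2, and 57.4 and 48.5 RPKM in BY4741. LYS1, the last enzyme of lysine synthesis, had 58.7 and 27.9 RPKM in sam1, 109 and 105 RPKM in shm2, and 110 and 135 RPKM in BY4741. Of the hexose transporters, HXT3 had 607 and 993 RPKM in sam1, 531 and 238 RPKM in shm2, and 292 and 245 RPKM in BY4741. HXT2 ran the other way, with 3.39 and 8.36 RPKM in sam1, 14.2 and 26.0 RPKM in shm2, and 3.31 and 10.9 RPKM in BY4741.

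Among the 92 measured Ty genes, of which 89 have a near-identical copy, the median was -0.10, or 0.11 when scaled to ACT1. YGR109W-A, a Ty3 gene with such a copy, had 5.12 and 2.49 RPKM in sam1, 18.2 and 25.7 RPKM in shm2, and 47.0 and 39.4 RPKM in BY4741, with a log2 difference of -2.29 (adjusted p = 0.0838, limma).

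The largest differences within a strain had 1 direction each. Between the sam1 cultures, the 5 genes that differed most were all higher in culture 3. They were the small nucleolar RNA genes SNR72 (1.74 RPKM in culture 1 and 39.7 RPKM in culture 3) and SNR52 (13.3 and 170 RPKM), the tRNA genes tH(GUG)G2 and tQ(CUG)M, and RRT5 (0.93 and 19.2 RPKM). Culture 1 minus culture 3 had a median of -0.42 over 275 nuclear tRNA genes. It was -0.56 over 82 small nucleolar and small nuclear RNA genes, and -0.01 over all genes. Between the shm2 cultures, the 5 genes that differed most were all higher in culture 2. They included MPC3, a mitochondrial pyruvate carrier gene (10.04 RPKM in culture 1 and 82.4 RPKM in culture 2), TKL2 (7.42 and 65.2 RPKM) and SPG4 (1.56 and 20.3 RPKM). MPC3 had 4.41 and 4.29 RPKM in sam1 and 59.8 and 33.7 RPKM in BY4741, so shm2 culture 2 was above the BY4741 cultures and shm2 culture 1 below them.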
